A study of Mus musculus with 15 samples.

Results

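Kap, Odc1, Gusb, Napsa and Akr1c18, grouped under the label of androgen-regulated transcripts of the proximal tubule, were followed across the cortico-medullary axis of the mouse kidney. Gusb did not follow the proximal tubule marker genes below as a transcript confined to that tubule would. Napsa and Akr1c18 also departed from markers of the whole proximal tubule. The 5 transcripts, of 25030 gene symbols in the table, were picked by symbol with their zone levels in these data already known. Their levels and differences are therefore described here without tests. The libraries were bulk RNA-seq profiles of inner medulla (IM), outer medulla (OM) and cortex, 5 of each, microdissected from kidneys of male C56BL/6N mice of wild type genotype. The labels give no age, no treatment and no transgene, and do not say which pieces came from the same animal, so the spread and the p-values below refer to these libraries. All groups were male and none had its androgen level changed, so androgen dependence could not be checked in these libraries, whereas the proximal tubule origin could be set against marker genes.

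Testosterone and its reduced form dihydrotestosterone change the transcription of target genes in the cells they act on. In the mouse kidney androgens enlarge proximal tubule cells and raise a set of enzymes and secreted proteins that differ between the sexes. The proximal tubule starts as a convoluted part in the cortex and ends as a straight part that reaches the outer stripe of the outer medulla. The inner medulla has no proximal tubule.

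The members differ in the sequence before their start sites. The RefSeq promoter table (build GRCm38.p6) held 4 of the 5, each as 300 bases that run 250 bases before to 50 bases after the start of the gene, and Napsa was not among them. A start with a TATA box and a start rich in CG pairs are shown as examples, by Kap, at chr6:133853618-133853917 on the minus strand with its TATA box (TATAAA) in capitals, and Odc1, at chr12:17544623-17544922 on the plus strand with its CG pairs in capitals.
Kap: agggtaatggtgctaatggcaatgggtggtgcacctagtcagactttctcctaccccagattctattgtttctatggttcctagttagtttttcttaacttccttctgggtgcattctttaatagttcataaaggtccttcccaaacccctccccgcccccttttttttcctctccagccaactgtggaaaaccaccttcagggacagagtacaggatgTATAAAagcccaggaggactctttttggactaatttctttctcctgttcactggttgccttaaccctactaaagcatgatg
Odc1: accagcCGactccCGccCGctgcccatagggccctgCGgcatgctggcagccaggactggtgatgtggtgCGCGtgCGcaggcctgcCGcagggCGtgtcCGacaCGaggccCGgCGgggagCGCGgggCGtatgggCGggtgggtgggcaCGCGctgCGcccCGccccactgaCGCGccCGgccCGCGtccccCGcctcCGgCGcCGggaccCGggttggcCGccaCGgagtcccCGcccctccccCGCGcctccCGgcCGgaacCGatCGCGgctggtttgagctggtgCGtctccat
In Kap the TATA box began 31 bases before the start, and G and C made up 44.7% of the window with 1 CG pair. Forward TATAAA occurred in 8.88% of 27025 promoters of the same length and in no other member. Odc1 held 42 CG pairs and 78% G and C, against a median of 7 CG pairs over all promoters, and 25 or more CG pairs were present in 18.4% of them. Gusb had 49.7% G and C with 6 CG pairs, and Akr1c18 had 42.3% with 5. The androgen response element half-site, AGAACA or its reverse complement TGTTCT, was searched on both strands and was in none of the 4 windows, against 19% of all promoters. The full palindrome, with both half-sites 3 bases apart, occurred in 1 promoter (0.0037%), that of no member.

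Values are TPM, transcripts per 1000000 transcripts, which the authors had already corrected for gene length and scaled to the same total in each library, so levels can be set beside each other between genes. Reads recovered from the TPM steps totalled 16264486 to 25195553 per library. A log2 difference below is that of log2(TPM + 1) from a limma model over all 15 libraries, given with its standard error (SE). TPM sum to a fixed total, and the middle of all 15052 tested genes was itself shifted, with a median log2 difference of 0.51 for IM minus OM, 0.65 for IM minus cortex and 0.11 for OM minus cortex. A difference near these values is no shift relative to the other genes, and values after median-ratio scaling, which sets libraries by the middle of their genes, are given where they matter.

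IM pieces were not free of proximal tubule transcripts. The 12 markers of the whole proximal tubule summed to 1750 to 4795 TPM in IM, 13068 to 14439 TPM in OM and 17406 to 18898 TPM in cortex libraries. Thick ascending limb markers summed to 3102 to 6124 TPM in IM and 3288 to 6590 TPM in OM libraries, overlapping ranges, while urothelial markers stood at 188 to 307 TPM in IM, 11.5 to 49.4 TPM in OM and 1.45 to 7.33 TPM in cortex libraries. IM library 4 had the lowest proximal tubule sum of the IM libraries, and the 7 adipocyte markers reached 212 TPM in IM, against highest values of 17.7 TPM in OM and 110 TPM in cortex. Cortex library 1 had the highest mean straight tubule level of the cortex libraries (7.65 on the log2 scale, where the lowest was 6.86). The part of these other cells in the members' differences was not tested, and in bulk tissue fewer cells of a type and less RNA per cell cannot be told apart.

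Kap encodes kidney androgen-regulated protein, a secreted product of proximal tubule cells. It was the most abundant transcript of the table in every OM and cortex library and in 4 of 5 IM libraries, and the second in IM library 4. Kap read 32063, 24283, 29811, 10496 and 36874 TPM in IM libraries 1 to 5, 91482, 82205, 87015, 88668 and 87349 TPM in OM libraries, and 82081, 68072, 79002, 69201 and 68883 TPM in cortex libraries. Every IM library lay below every OM and cortex library, with IM library 4 far under the other IM pieces, and the lowest OM value stood only just above the highest cortex value. Kap thus took a mean of 2.67% of all TPM in IM, 8.73% in OM and 7.34% in cortex (SD 1.01, 0.34 and 0.66 percentage points, n = 5 each).

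Means of Kap were 26706 ± 10129 TPM in IM, 87344 ± 3369 TPM in OM and 73448 ± 6579 TPM in cortex (SD, n = 5 each). Its log2 difference was −1.83 for IM minus OM and −1.57 for IM minus cortex, each with an SE of 0.25. Between OM and cortex the difference of 0.25 was about the size of its SE of 0.25, which is pooled over zones that include the more variable IM, and after median-ratio scaling it was 0.09. Without Kap in the totals, the median of all genes for IM minus OM was 0.43 rather than 0.51.

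**Figure D1:**
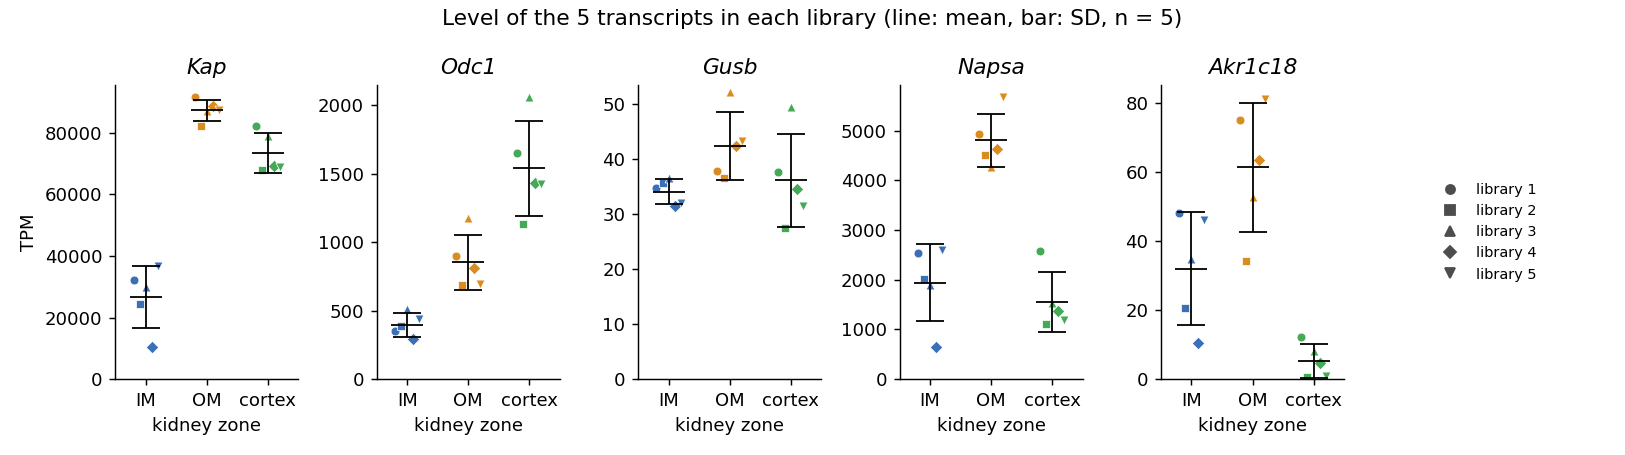
TPM of each transcript (vertical axis, linear from 0) in IM, OM and cortex, with 1 symbol per library number and the mean and SD of 5 libraries as lines. Kap and Odc1 were lowest in IM, Napsa and Akr1c18 were highest in OM, and Gusb lay between 27.4 and 52.2 TPM in all zones.

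Odc1 encodes ornithine decarboxylase, the rate-limiting enzyme of polyamine synthesis, whose activity in the mouse kidney is known to be raised by testosterone. It read 352, 385, 517, 292 and 439 TPM in IM libraries 1 to 5, 898, 691, 1181, 813 and 693 TPM in OM libraries, and 1650, 1133, 2062, 1431 and 1425 TPM in cortex libraries. IM libraries were below all others, and OM and cortex overlapped only because OM library 3 exceeded cortex library 2. The order was thus cortex above OM above IM, at means of 397 ± 85.4 TPM in IM, 855 ± 202 TPM in OM and 1540 ± 345 TPM in cortex (SD, n = 5 each). Odc1 was the only member with a negative OM minus cortex difference, at −0.85 (SE 0.18), beside −1.10 for IM minus OM and −1.95 for IM minus cortex.

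Gusb encodes beta-glucuronidase, a lysosomal enzyme that cleaves glucuronic acid from glycosaminoglycans and that rises slowly in mouse kidney under androgen. It read 34.7, 35.6, 36.5, 31.5 and 31.9 TPM in IM libraries, 37.8, 36.6, 52.2, 42.3 and 43.3 TPM in OM libraries, and 37.7, 27.4, 49.4, 34.6 and 31.4 TPM in cortex libraries. OM library 2 was barely above the highest IM library, and cortex spanned the whole IM range. Mean levels were 34.1 ± 2.22 TPM in IM, 42.4 ± 6.18 TPM in OM and 36.1 ± 8.36 TPM in cortex (SD, n = 5 each). The differences were −0.30 for IM minus OM, −0.06 for IM minus cortex and 0.24 for OM minus cortex, each with an SE of 0.13. After median-ratio scaling the first pair became −0.82 and −0.74, and the last 0.09. The OM minus cortex difference of Gusb was 0.15 without cortex library 2 and 0.36 without cortex library 3.

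Napsa encodes napsin A, an aspartic protease of kidney and lung. RefSeq lists KAP among its older names, so its place among the androgen-regulated transcripts may rest on that alias and is in doubt. The table has separate rows for Kap and Napsa, and the ratio between the rows was not constant. Napsa read 2533, 2020, 1901, 658 and 2597 TPM in IM libraries, 4938, 4509, 4259, 4625 and 5666 TPM in OM libraries, and 2584, 1105, 1530, 1373 and 1193 TPM in cortex libraries. All OM libraries lay above all others, and IM and cortex overlapped across most of their ranges, with IM library 4 the lowest of all and cortex library 1 apart from the other cortex libraries.

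Napsa means were 1942 ± 780 TPM in IM, 4800 ± 542 TPM in OM and 1557 ± 597 TPM in cortex (SD, n = 5 each). The log2 difference was −1.44 for IM minus OM and 1.69 for OM minus cortex, with an SE of 0.33. IM minus cortex was 0.24 as deposited and −0.46 after median-ratio scaling, so its direction depends on the scaling. It was 0.60 without IM library 4, 0.44 without cortex library 1 and 0.10 without IM library 5. Unlike Kap, which differed little between OM and cortex, Napsa was 3.08-fold higher in OM by means.

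Akr1c18 encodes 20-alpha-hydroxysteroid dehydrogenase, which inactivates progesterone and is also known as a marker of the inner zone of the adrenal cortex that is lost in males at puberty. Its TPM were 48.2, 20.5, 34.7, 10.5 and 46.1 in IM libraries, 75.1, 34.4, 52.8, 63.4 and 81.1 in OM libraries, and 12.1, 0.568, 8.14, 4.65 and 0.838 in cortex libraries. OM was above cortex in every library, whereas IM overlapped both, and cortex varied 21.3-fold between its highest and lowest library. Reads behind the cortex values ran from 8 to 157, against 120 to 513 in IM and 407 to 979 in OM, so the lowest cortex values rest on few reads.

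Mean Akr1c18 levels were 32.0 ± 16.3 TPM in IM, 61.3 ± 18.6 TPM in OM and 5.25 ± 4.92 TPM in cortex (SD, n = 5 each). The OM minus cortex difference of 3.72 (SE 0.57) was the widest of the 15 member differences, and IM minus cortex was 2.67. IM minus OM was −1.04. Adrenal markers gave no high values in any zone: the 8 genes summed to 5.23 to 6.74 TPM in IM, 3.45 to 4.35 TPM in OM and 2.13 to 2.83 TPM in cortex libraries, and 4 of the 8 were at 0 in all OM and all cortex libraries. Most of each sum came from 1 gene, the steroid transport protein Star, at means of 4.69 TPM in IM, 3.10 TPM in OM and 2.19 TPM in cortex, the only one of the 8 that passed the filter. The part of adrenal tissue in the Akr1c18 values was not tested.

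Between IM and OM, 4 of 5 members were lower in all IM libraries than in all OM libraries, where 13.2% of the 15052 tested genes had that pattern. Between IM and cortex the same held for 2 of 5, Kap and Odc1, against 13.3% of genes. OM libraries were all above cortex libraries for 3 of 5, Kap, Napsa and Akr1c18, against 23.4% of genes. The members were chosen with these levels in view, so nothing is read from these shares.

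To set the members beside the amount of proximal tubule transcript in the same piece, the mean log2 level of marker genes was subtracted from that of each member. The straight tubule list holds 10 genes such as Slc7a13, an amino acid transporter, and the convoluted list 10 genes such as Slc34a1, a phosphate transporter, and Slc5a2, a glucose transporter. In limma, all 10 convoluted markers were lower in OM than in cortex, where 6.3% of genes were called lower and 28.3% higher at an adjusted p under 0.05. Of the straight markers, 5 were higher and 2 lower in OM than in cortex, or 2 and 2 after median-ratio scaling, which left 16.2% of all genes called higher and 17.8% lower. The count of straight markers higher in OM was 3 without cortex library 2 or OM library 5 and 8 without IM library 4.

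Against the straight tubule list Napsa was 4.50 ± 0.26 log2 units above it in IM, 4.31 ± 0.12 in OM and 3.37 ± 0.19 in cortex (SD, n = 5 each), so the cortex libraries were the ones below. Akr1c18 was at −1.42 ± 0.36 in IM, −2.01 ± 0.49 in OM and −4.98 ± 1.11 in cortex relative to the same list. Relative to this list both genes were thus lowest in cortex, where Napsa was still above it. Akr1c18 in cortex ranged from −6.22 to −3.94 on this scale, below every IM and OM library.

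Kap showed the opposite order against the straight list, at 8.30 ± 0.14 in IM, 8.50 ± 0.15 in OM and 9.00 ± 0.20 in cortex. Against the convoluted list it was at 9.69 ± 0.55 in IM, 9.24 ± 0.23 in OM and 7.94 ± 0.29 in cortex. The Kap level therefore lay between the patterns of the straight and the convoluted markers. Odc1 was higher against the straight list in cortex, 3.40 ± 0.29, than in IM, 2.33 ± 0.43, and OM, 1.80 ± 0.42. Against the convoluted list Odc1 had another order, at 3.72 ± 0.21 in IM, 2.54 ± 0.42 in OM and 2.34 ± 0.46 in cortex, and against the whole proximal tubule list it was at 1.76 ± 0.32, 0.86 ± 0.39 and 1.35 ± 0.36 in IM, OM and cortex.

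Gusb did not track the proximal tubule lists. Relative to the 12 markers of the whole proximal tubule it was at −1.72 ± 0.47 in IM, −3.42 ± 0.23 in OM and −4.03 ± 0.35 in cortex, a spread of over 2 log2 units across zones, while its TPM changed little. Napsa also departed from this list, at 3.93 ± 0.37 in IM, 3.37 ± 0.21 in OM and 1.32 ± 0.53 in cortex. So did Akr1c18, at −1.99 ± 0.43, −2.95 ± 0.55 and −7.03 ± 1.41 in the same zones. Against the straight list Gusb was at −1.15 ± 0.56 in IM, −2.49 ± 0.25 in OM and −1.98 ± 0.30 in cortex. By these markers Gusb did not behave as a transcript confined to the proximal tubule, nor Napsa or Akr1c18 as one even along its whole length. Whether proximal tubule cells hold Gusb beside other cells cannot be told from bulk tissue.

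**Figure D2:**
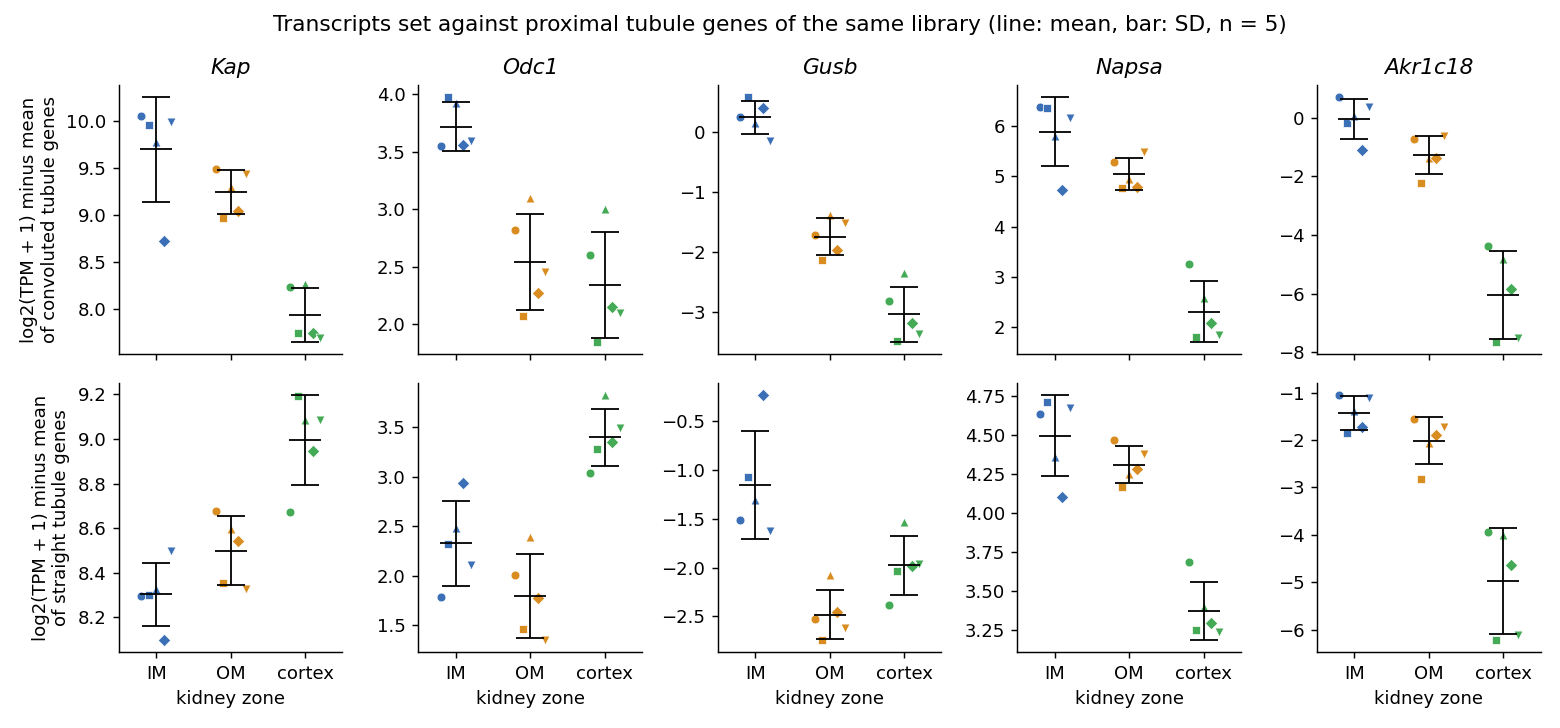
log2(TPM + 1) of each transcript minus the mean of 10 convoluted (upper row) or 10 straight (lower row) proximal tubule genes of the same library, in IM, OM and cortex, with the mean and SD of 5 libraries. Against the straight genes, Napsa and Akr1c18 were lowest in cortex and Kap was highest there.

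Of 15 tested steroid hormone receptors, cofactors and chaperones, 10 were higher and 3 lower in IM than in OM, beside 66.4% and 17.2% of all genes. Median-ratio scaling changed these counts to 5 and 7, beside 38.1% and 36.3% of all genes. Esr1 and Fkbp5 were among the genes called lower both as deposited and after this scaling. Fkbp5, a chaperone and a common target of steroid receptors, averaged 28.2 TPM in IM, 47.3 TPM in OM and 60.5 TPM in cortex, and Esr1, the estrogen receptor, 2.36, 4.54 and 1.92 TPM in the same zones. The heat shock chaperone Hsp90aa1 ran the other way, at 566 TPM in IM, 261 TPM in OM and 233 TPM in cortex (IM minus OM 1.11, adjusted p = 1.34e-09), and its relative Hsp90ab1 was higher in IM as deposited (0.26) but lower after median-ratio scaling (−0.28). Fkbp4, a related chaperone, did not pass between IM and OM as deposited (adjusted p = 0.54).

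Of 14 tested genes of androgen and steroid metabolism, 3 were higher and 8 lower in IM than in OM, where 66.4% of all genes were called higher and 17.2% lower. After median-ratio scaling the counts were 0 and 11, beside 38.1% and 36.3% of all genes. IM minus cortex gave 3 and 7, where 70.2% of all genes were called higher and 16% lower. With the same scaling it gave 1 and 12, beside 40% and 38.6% of all genes. OM minus cortex gave 3 and 3, beside 28.3% and 6.3% of all genes. After median-ratio scaling the OM minus cortex counts were 3 and 5, beside 16.2% and 17.8% of all genes. The abundant Hsd17b11, a 17-beta-hydroxysteroid dehydrogenase of lipid droplets, averaged 516 TPM in IM, 551 TPM in OM and 749 TPM in cortex and was lower in both medullary zones than in cortex (adjusted p = 0.00095 for IM, 0.0116 for OM). Hsd11b1, which regenerates active glucocorticoid, averaged 294 TPM in IM, 224 TPM in OM and 122 TPM in cortex.

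Its counterpart Hsd11b2, which protects the mineralocorticoid receptor in collecting duct cells, was higher in IM than in OM as deposited (0.31, adjusted p = 0.0179) and not called after median-ratio scaling (−0.23) or without IM library 1 (adjusted p = 0.052). Hsd17b10, a mitochondrial enzyme, was at 190, 232 and 226 TPM in IM, OM and cortex. Srd5a2, a steroid 5-alpha reductase that makes dihydrotestosterone, averaged 4.52 TPM in IM, 19.4 TPM in OM and 21.4 TPM in cortex (IM minus OM −1.95, adjusted p = 7.11e-05).

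Akr1c18 stands in a cluster of related aldo-keto reductase genes, of which 5 of 8 others passed the filter. Akr1c21, a 17-alpha-hydroxysteroid dehydrogenase, was the most abundant at 656 TPM in IM, 2258 TPM in OM and 2402 TPM in cortex. It was lower in IM than in either (log2 difference −1.87 against OM, adjusted p = 1.56e-06), and its OM minus cortex difference of −0.09 did not pass (adjusted p = 0.78). Akr1c14, a 3-alpha-hydroxysteroid dehydrogenase, averaged 136, 347 and 173 TPM in IM, OM and cortex.

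Akr1c14 was higher in OM than in cortex as deposited (1.05, adjusted p = 0.0367) but not after median-ratio scaling (0.89, adjusted p = 0.084), and the call was also lost when any of 7 single libraries was left out. Akr1c13 was the family member higher in IM, at 39.8, 26.4 and 20.7 TPM in IM, OM and cortex, and its IM minus OM call was lost after the same scaling (0.57 as deposited, 0.05 scaled). Akr1c19 averaged 16.3, 22.1 and 24.3 TPM and Akr1c12 5.78, 6.85 and 6.18 TPM in IM, OM and cortex, while Akr1c20 and Akr1c6 stayed under 1 TPM on average and Akr1cl was at 0 throughout. These genes are similar in sequence and the counting method is not given in the sources used here, so reads may be shared among them, which makes their values uncertain. By means, Akr1c18 was 11.7-fold higher in OM than in cortex.

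**Figure D3:**
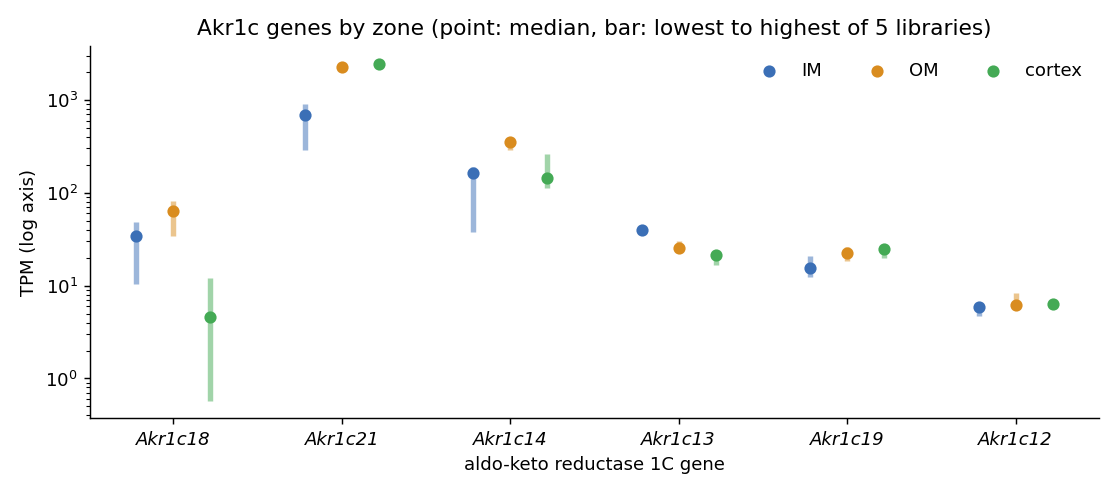
TPM (log axis) of Akr1c18 and 5 related genes in IM, OM and cortex; points are medians and bars run from the lowest to the highest of 5 libraries. Akr1c18 cortex libraries all lie below the OM libraries, whereas Akr1c21 has its OM and cortex medians side by side.

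In the pathway that Odc1 opens, 7 of 17 tested polyamine genes were higher and 7 lower in IM than in OM, and 8 and 4 in IM than in cortex. Over all genes the shares were 66.4% and 17.2% for IM minus OM and 70.2% and 16% for IM minus cortex. After median-ratio scaling the polyamine counts became 2 and 10, beside 38.1% and 36.3% of all genes, and 4 and 13, beside 40% and 38.6%. Antizyme Oaz1, which binds ornithine decarboxylase and directs it to the proteasome, averaged 654 TPM in IM, 684 TPM in OM and 711 TPM in cortex, and passed in no comparison as deposited (adjusted p 0.36, 0.081 and 0.50 for IM minus OM, IM minus cortex and OM minus cortex). Odc1 was thus 3.88-fold lower in IM than in cortex by means, beside antizyme means that lay close together, although after median-ratio scaling Oaz1 was lower in IM than in cortex (log2 difference −0.82).

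A second antizyme, Oaz2, was lower in IM, at 121 TPM, than in OM, 165 TPM, and cortex, 184 TPM (IM minus cortex −0.61, adjusted p = 4.32e-08). Spermine synthase, Sms, had the same order as Odc1, with 11.6, 17.0 and 23.3 TPM in IM, OM and cortex and calls in all comparisons (OM minus cortex −0.43, adjusted p = 0.000621). The acetyltransferase Sat1, which starts polyamine breakdown, averaged 226, 367 and 351 TPM in IM, OM and cortex and was called lower in IM against both. Dohh, which completes the hypusine residue of a translation factor, was higher in IM as deposited (0.48 against OM) and not called after scaling (−0.05). Amd1 and Amd2 had nearly equal values in every zone, and reads of such near-identical copies cannot be told apart.

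Among 18 other lysosomal glycosidases and related hydrolases, 7 were higher and 8 lower in IM than in OM, and 3 were higher and 3 lower in OM than in cortex. The shares of all genes were 66.4% and 17.2%, and 28.3% and 6.3%. Neu1, a sialidase, averaged 103 TPM in IM, 278 TPM in OM and 339 TPM in cortex (IM minus OM −1.45, adjusted p = 2.23e-08). Hexa, the alpha subunit of hexosaminidase, was at 146 TPM in IM, 39.8 TPM in OM and 40.6 TPM in cortex (IM minus OM 1.84, adjusted p = 2.24e-10). Gusb, with 34.1, 42.4 and 36.1 TPM, had smaller differences than these.

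Fuca1, a fucosidase, averaged 136, 205 and 222 TPM in IM, OM and cortex. After median-ratio scaling the IM minus OM counts of the list were 3 and 13, beside 38.1% and 36.3% of all genes. The OM minus cortex counts were then 0 and 8, beside 16.2% and 17.8%, so the even split depends on the scaling.

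Of 15 tested aspartic and lysosomal proteases, 6 were higher and 7 lower in IM than in OM, beside 66.4% and 17.2% of all genes. OM minus cortex gave 5 higher and 5 lower, beside 28.3% and 6.3%. Median-ratio scaling changed the IM minus OM counts to 2 and 10, beside 38.1% and 36.3% of all genes. It changed those of OM minus cortex to 3 and 7, beside 16.2% and 17.8%. Napsa was the most abundant of these genes in OM: Ctsd, the lysosomal aspartic protease cathepsin D, averaged 902 TPM in IM, 589 TPM in OM and 672 TPM in cortex. Legumain, Lgmn, was at 152, 417 and 608 TPM in IM, OM and cortex, lower in OM than in cortex (−0.54, adjusted p = 0.00186). Ctsb, cathepsin B, was at 222, 266 and 281 TPM, and Ctsh, cathepsin H, at 372, 322 and 260 TPM.

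Ctse, cathepsin E, another aspartic protease, averaged 7.10 TPM in IM, 1.29 TPM in OM and 0.427 TPM in cortex, and Bace2 3.32, 0.826 and 0.329 TPM, so both were highest in IM. No other tested gene of this list shared the OM maximum of Napsa with a difference of its size: Ctsc and Ctss, the leukocyte cathepsins C and S named after their values were seen, had OM minus cortex differences of 0.53 and 0.47.

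Of the 14 other genes listed as androgen-induced or male-biased in the mouse kidney, 13 were lower in IM than in OM and none was higher, where 17.2% of all genes were lower and 66.4% higher. IM minus cortex gave 12 lower and 1 higher, beside 16% and 70.2% of all genes. OM minus cortex was mixed, with 2 higher and 6 lower, beside 28.3% and 6.3%. Apart from Cyp7b1 and Acsm3, these counts were close to those of the 12 whole proximal tubule markers, which were all lower in IM against both zones and of which 5 were lower in OM than in cortex.

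Cyp4b1, a cytochrome P450 of fatty acid and xenobiotic oxidation, averaged 574 TPM in IM, 3121 TPM in OM and 5429 TPM in cortex, with an OM minus cortex difference of −0.81 (adjusted p = 0.00103). Cyp2e1, the ethanol-inducible P450, was at 206, 1339 and 2839 TPM in IM, OM and cortex, also lower in OM than in cortex (−1.09, adjusted p = 2.58e-05). Slc22a12, the urate transporter, averaged 382, 1335 and 1459 TPM, and Adh1, an alcohol dehydrogenase, 593, 889 and 960 TPM, and neither passed between OM and cortex (adjusted p = 0.69 and 0.43).

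Cyp7b1, an oxysterol and steroid 7-alpha-hydroxylase, stood out with 237 TPM in IM, 508 TPM in OM and 78.3 TPM in cortex, or 44.8 TPM in cortex without library 1, which had 212 TPM. It was higher in OM than in cortex by 3.23 on the log2 scale (adjusted p = 0.00061) and higher in IM than in cortex by 1.98 (adjusted p = 0.00489). After median-ratio scaling the difference from cortex in IM was 1.29 and did not pass (adjusted p = 0.056). Acsm3, a medium-chain acyl-CoA synthetase, averaged 384, 1051 and 507 TPM in IM, OM and cortex, with an OM minus cortex difference of 1.09 (adjusted p = 0.0166). By means Cyp7b1 thus had the zone order of Akr1c18, OM above IM above cortex. The Odc1 order, cortex above OM above IM, was that of most genes of this list, Cyp4b1 and Cyp2e1 among them.

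**Figure D4:**
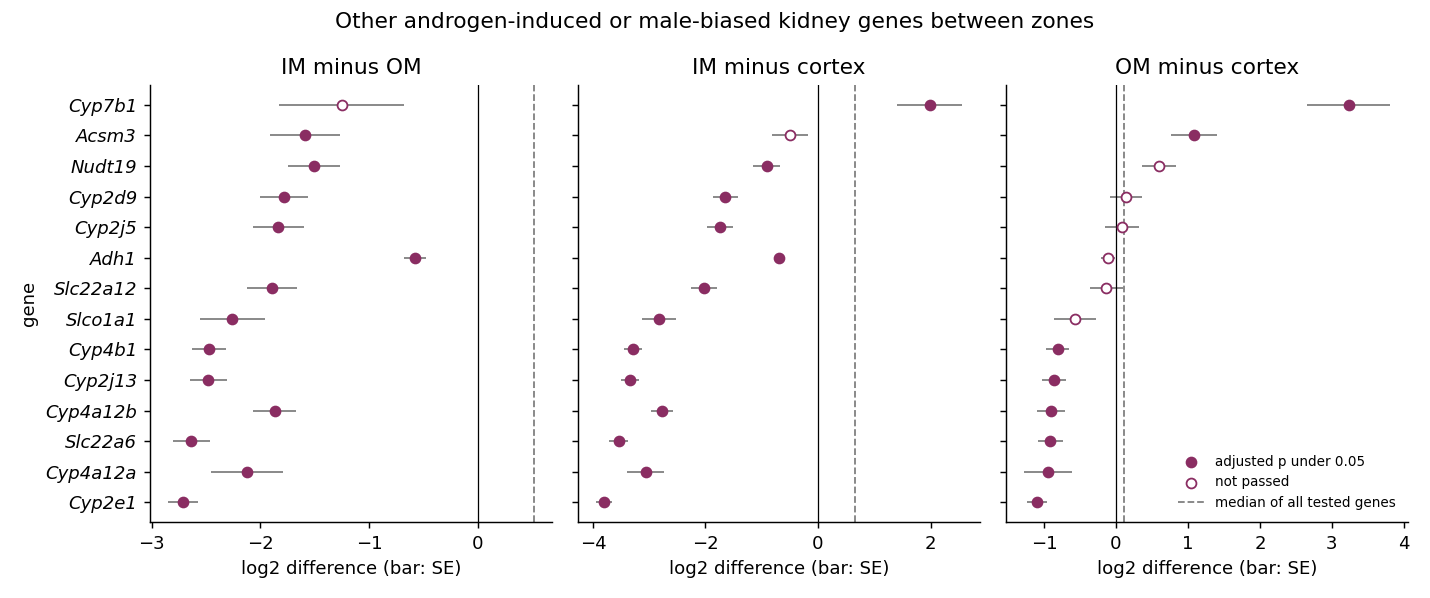
log2 differences with SE of the 14 other androgen-induced or male-biased genes for IM minus OM, IM minus cortex and OM minus cortex; filled points passed an adjusted p of 0.05 and the dashed line is the median of all tested genes. Most genes lie left of 0 in both IM comparisons, and OM minus cortex runs from Cyp2e1 at −1.09 to Cyp7b1 at 3.23.

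A short list held genes known as higher in female than in male mouse kidney, all of them present in the table. Of 5 listed, 4 passed the filter, of which 3 were higher in OM than in cortex, beside 28.3% of all genes, and 3 lower in IM than in OM, beside 17.2%. Without OM library 2 or without IM library 4, Cyp4a14 no longer passed between IM and OM. Slc7a12, an amino acid transporter, averaged 2.72 TPM in IM, 8.13 TPM in OM and 1.76 TPM in cortex, and Cyp4a14, a fatty acid hydroxylase, 4.39, 15.1 and 9.92 TPM. Without library 2 the Cyp4a14 means were 2.52, 8.28 and 6.24 TPM in the same zones. The organic anion transporter Slc22a7 was at 157, 418 and 145 TPM in IM, OM and cortex, with an OM minus cortex difference of 1.66 (adjusted p = 0.00311). Abcc3, an efflux pump, ran the other way, at 7.73 TPM in IM, 1.29 TPM in OM and 0.525 TPM in cortex.

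The genes whose log2(TPM + 1) followed each member most closely were found by Pearson's r over the 15 libraries among 11165 other genes at a mean of 5 TPM or more. The points share their library, zone and dissection, so r is a description. Kap was closest to Treh, the brush border trehalase (r = 0.998), followed by Sugct, Mgam, Slc27a2 and Proc. Treh averaged 57.0 TPM in IM, 174 TPM in OM and 152 TPM in cortex, so its zone profile was that of Kap at a far lower level.

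Napsa was closest to Gpm6a, a membrane glycoprotein (r = 0.992; 59.3, 147 and 51.9 TPM in IM, OM and cortex), followed by Crot, C8a, Slc23a3 and Slc22a7. Akr1c18 was closest to Myo5a, an unconventional myosin (r = 0.983; 19.5, 32.4 and 8.07 TPM), followed by Serpina1b, Slc39a8, Itih2 and Higd1c. Odc1 was closest to Prr5 (r = 0.974), Eif5a, Slc46a3, Ndrg1 and AI464131. Eif5a, a translation factor, averaged 367 TPM in IM, 415 TPM in OM and 454 TPM in cortex, a far smaller range than that of Odc1. Gusb had no gene as close, its nearest being Usp20, a deubiquitinase, at r = 0.862.

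The zone mean was then subtracted from each library, a step added after the data were seen. All 10 pairs of members had a positive r, from 0.22 to 0.90. Without IM library 4, the lowest IM library in every member, r ran from 0.19 to 0.81. Here and below, zone means were not taken anew when libraries were left out, so these r still carry part of their effect. How often other gene pairs have a positive r was not computed, so nothing is read from the sign. With all libraries Kap and Napsa had the highest r (r = 0.90, rho = 0.84, n = 15). It was lower without the IM libraries 4 and 5 that lay farthest out in Kap (r = 0.70, n = 13). Napsa and Akr1c18 gave r = 0.79 and rho = 0.81, or r = 0.74 without IM library 4 and cortex library 1. Cortex library 1, which had the highest straight tubule level of the cortex libraries, was the highest cortex library in Kap, Napsa and Akr1c18 alike.

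Odc1 and Gusb had r = 0.76 and rho = 0.73, or r = 0.55 without OM library 3 and cortex library 3. Akr1c18 had r = 0.63 with Kap, 0.59 with Gusb and 0.56 with Odc1. Kap and Odc1 had r = 0.51 and rho = 0.63, or r = 0.37 without IM library 4. Kap and Gusb had the lowest r, 0.22, with rho = 0.53. Odc1 and Gusb were both highest in library 3 of each zone, at 517, 1181 and 2062 TPM of Odc1 and 36.5, 52.2 and 49.4 TPM of Gusb in IM, OM and cortex. Of 11166 genes, 106 (0.949%) were highest in library 3 of all zones. The shares for libraries 1, 2, 4 and 5 were 2.93%, 1.12%, 2.02% and 0.582%, so library 3 did not stand out. The labels do not say whether equal numbers mark the same animal.

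**Figure D5:**
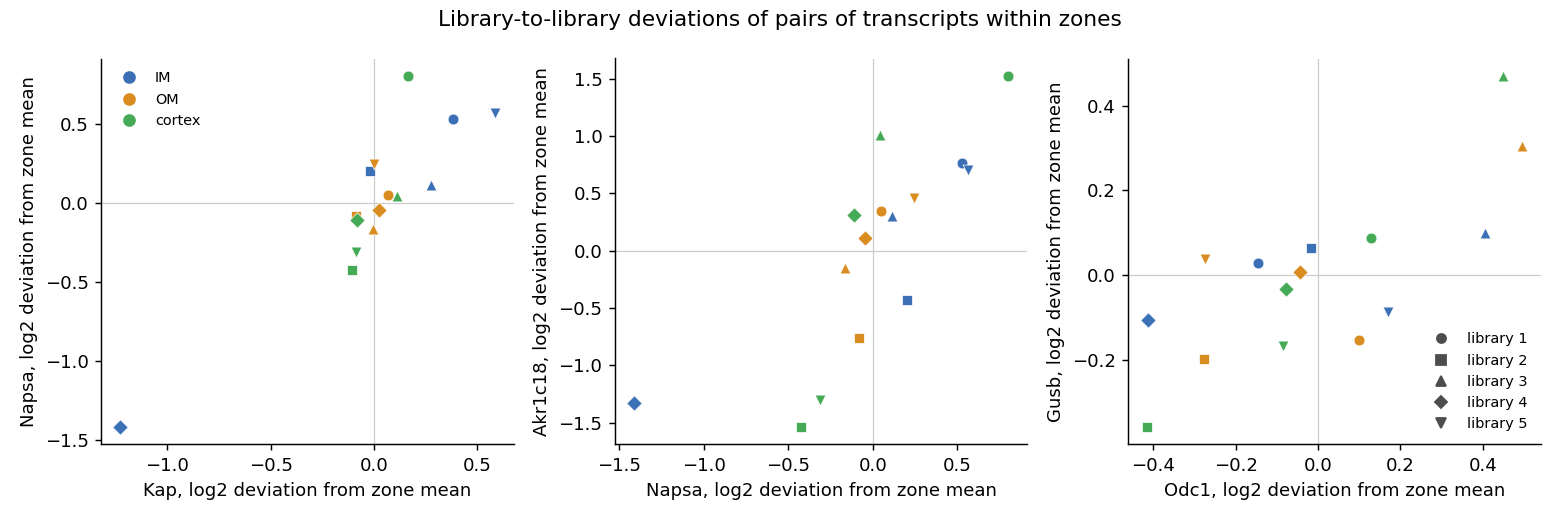
Deviation of log2(TPM + 1) from the zone mean in each of 15 libraries, for Kap and Napsa, Napsa and Akr1c18, and Odc1 and Gusb; colours are zones and symbols library numbers. IM library 4 lies at the lower left of the first panel, and the library 3 symbols lie at the right of the last panel.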

How the data were processed

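RNA of microdissected mouse IM, OM and cortex, 5 libraries each, was sequenced as Illumina read pairs per the labels' protocols. The authors deposited a single table of TPM for 25030 gene symbols. The submitters' processing notes name STAR and build mm9, while the counter, annotation and strand setting were not given in the sources used here. Since TPM carry no depth, whole reads were recovered from ratios of TPM between libraries for 19997 of 19997 genes detected in more than 1 library (tolerance 0.001 reads). For testing, 15052 genes reached 1 TPM in 5 or more libraries. Their log2(TPM + 1) was fitted by zone in limma 3.58.1 (R 4.3.3, statmod 1.5.0; trend and robust moderation), two-sided, with Benjamini-Hochberg adjustment over all of them and calls under 0.05. The added 1 TPM understates changes of low genes. Median-ratio scaling set libraries to a common middle, using genes above 0 in all of them.

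The 5 members and the gene lists were chosen with earlier results of these data known, so members carry no p-value and lists no set test. Genes named were the members, up to 4 of the most abundant tested genes per list, genes called against the majority of their list, the Akr1c genes and the 5 nearest by r, of which the text gives a part (some are not reported here). Srd5a2, Ctsc and Ctss fell outside this rule and were picked after their values were seen. Alternatives were pseudocount 0.1, no filter, median-ratio scaling, quantile normalization, totals without Kap, voom on recovered reads, a replicate block and libraries left out. Both the recovery and the fits were tested on simulated data.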

Additional observations from a re-analysis of the deposited data

Results flagged for a closer look

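In each zone the 5 libraries of every member, of the list genes and nearest genes named above, and of the members set against proximal tubule lists were searched for 1 library far from the rest, where the gap to its neighbour exceeded 0.71 of the group's range. Of 186 groups tested, 18 met this (9.68%), where chance flags about 1 in 20 groups.

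Napsa had 2584 TPM in cortex library 1, and the other cortex libraries lay between 1105 and 1530 TPM. Gpm6a, its nearest gene, was also high in that library, at 89.5 TPM beside 36.9 to 52.1 TPM. Kap set against proximal tubule genes was low in IM library 4, at 7.34 log2 units above the whole proximal tubule list and 8.72 above the convoluted list. The same IM library was low in Slc22a7 (50.6 TPM, others 172 to 200 TPM) and high in Bace2 (3.99 TPM, others 3.10 to 3.24 TPM).

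Cyp4a14, the fatty acid hydroxylase of the female-biased list, was far above the rest in library 2 of every zone. It read 11.9 TPM in IM library 2, where the others lay between 0.844 and 3.41 TPM. OM library 2 held 42.5 TPM, with the others at 7.30 to 10.4 TPM, and cortex library 2 held 24.6 TPM, with the others at 4.81 to 9.94 TPM. Without OM library 2 or without IM library 4, its IM minus OM difference no longer passed in limma (highest adjusted p = 0.073, against 0.0236 with all libraries).

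Srd5a2 was far above the rest in OM library 3, at 29.7 TPM beside 16.2 to 17.7 TPM, the library in which Odc1 and Gusb were also highest among OM libraries. Akr1c13 was high in OM library 5, at 30.6 TPM beside 24.5 to 26.1 TPM. OM library 1 was high in Hsd17b10 (256 TPM) and Ctse (2.65 TPM) and low in Ctsb (234 TPM). Fkbp5 was high in IM library 1, at 38.9 TPM beside 24.1 to 26.8 TPM. Cortex library 1 was high in Hsp90ab1 (1047 TPM) and Abcc3 (0.698 TPM) and low in Oaz1 (635 TPM).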

How the results depend on the processing

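Scaling moved the most values. For IM minus OM, 9999 genes were called higher and 2592 lower as deposited, 5740 and 5470 after median-ratio scaling, and 5543 and 5391 after quantile normalization. For IM minus cortex the counts were 10567 and 2405, then 6015 and 5806, and 5640 and 5827, and for OM minus cortex 4267 and 949, then 2445 and 2675, and 1945 and 2172. Median-ratio scaling gave log2 differences for IM minus OM of −2.37 for Kap, −1.64 for Odc1 and −0.82 for Gusb, for IM minus cortex of −2.28 for Kap, −2.65 for Odc1, −0.74 for Gusb and −0.46 for Napsa, and for OM minus cortex of 0.092 for Kap. Of the other androgen-induced or male-biased genes, 0 were then higher in IM than in cortex (limma), against 1 as deposited. Quantile normalization gave −0.34 for Kap in both IM comparisons and 0 for OM minus cortex, because it assigns the top gene of a library the same value in each, and −0.83 and −0.69 for Gusb. Voom on recovered reads gave −0.47 for Gusb in IM minus OM. In 663 other combinations of these results and settings, a value stayed within the spread between libraries or a count within 1.5 times. Part of these could not have moved and say nothing of stability. A log2 difference is the same with a replicate block, and the same when a library of the zone not compared is left out.

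Leaving out 1 library in turn kept Kap between −1.97 and −1.52 for IM minus OM, Napsa between 1.58 and 1.89 and Akr1c18 between 3.33 and 4.10 for OM minus cortex, while Gusb for IM minus cortex ran from −0.15 to 0.06. Of 92 calls of named list genes and nearest genes, 10 were lost in at least 1 such fit, among them Akr1c14 for OM minus cortex (highest adjusted p = 0.088), Hsd11b2 for IM minus OM without IM library 1 (adjusted p = 0.052) and Fkbp5 for OM minus cortex without cortex library 5 (adjusted p = 0.051). Library numbers were not taken as pairs, since the labels do not say whether equal numbers mark the same animal. Deviations of equally numbered libraries of 2 zones correlated at −0.03 to 0.26, over 0.1 in 8 of 15 pairs. In 10 of these 15 pairs the best partner carried the same number, so equal numbers were most often the most alike. Whether they share an animal was not tested, and the main p-values take no account of it. With the number as a replicate block, 12736 genes were called for IM minus OM, 13114 for IM minus cortex and 5524 for OM minus cortex, and 14 listed androgen-induced or male-biased genes were lower in IM than in OM. Depth limits the cortex values of Akr1c18, which rest on 8 to 157 reads, and intervals of counting error are not given for TPM.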
